A study of Mus musculus with 39 samples.

Results

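Hepatocytes clear drugs, conjugates, bile acids and lipids through ATP-binding cassette (ABC) pumps, and the 10 described here were measured in livers of mice given phenobarbital. The members are Abcc2, Abcc3, Abcc4, Abcc6, Abcb1a, Abcb4, Abcb11, Abcg2, Abcg5 and Abcg8. They were chosen by name, as every probe set whose only gene symbol in the platform annotation is one of these genes. This gave 11 of the 45101 probe sets on the array, and 10 of the 12580 genes tested. Abcb1a has a pair of probe sets and each other member has 1.

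The samples are whole livers of male B6C3F1/Crl mice, a hybrid mouse strain. Treated mice drank water with phenobarbital at 0.05% (w/v) for 1, 7, 28 or 91 days, and control mice of the same 4 times did not receive it. Each of the 8 groups has 5 arrays except the controls of day 1, which have 4, so that 39 arrays were used. On arrival the animals were aged 29 to 32 days, and 5 days of acclimatisation followed. The general treatment text names 28 days, whereas the labels of single samples reach 91 days and were followed here. Whether arrays stand for different animals is not stated, and p-values then reflect only the variation among these samples, which may be technical.

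The pumps sit on opposite faces of the hepatocyte. The canalicular face borders the bile canaliculus, and pumps there load bile with bile salts, phospholipid, sterols and conjugated waste. The basolateral face borders the blood, and pumps there return bile acids and glucuronides to the circulation when export into bile is overloaded. Phenobarbital activates the nuclear receptor CAR, which raises drug-metabolizing enzymes and is known to act on several of these transporters. Abcc3 and Abcc4 were taken as the basolateral pumps, and Abcc2, Abcb1a, Abcb4, Abcb11, Abcg2, Abcg5 and Abcg8 as the canalicular ones. Abcc6, which releases ATP from hepatocytes and is usually placed on the basolateral face, was kept apart.

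Values are the deposited log2 signals. Effects are differences of log2 means, phenobarbital minus control, with a standard error (SE) and an adjusted p from limma over all 12580 genes, and a gene was called when that p was under 0.05. In whole tissue, fewer cells of a type and less RNA per cell cannot be told apart. Probe sets differ in brightness for reasons other than abundance, so levels are compared between groups within a probe set and not between genes. Replicates of a group had correlations across probe sets of 0.989 to 0.996, and no pair of the 39 columns held identical values. Cyp2b10, the classical CAR target used as a check of the treatment labels, was higher by 6.21, 6.36, 6.90 and 5.64 on the log2 scale at days 1, 7, 28 and 91, without overlap between groups at any of them. Of 6 tested genes of the CAR response list, 6, 6, 5 and 6 were higher at these times and none lower. Of all genes, 15.8%, 5.64%, 11.2% and 4.62% were called higher.

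The promoter windows of 3 members are shown as background, and no link between them and the effects was tested. Each window runs from 250 bases before to 50 bases after an annotated RefSeq start in build GRCm38.p6, and windows were available here for 8 of the 10 members. Abcg5 and Abcg8, whose products work only as a pair, have annotated starts 110 bases apart on opposite strands of chromosome 17. Abcg8 has another annotated start farther away, at 84676302, whose window does not overlap that of Abcg5. The Abcg5 window (chr17:84682962-84683261, minus strand) is printed with capitals for the 209 bases that the Abcg8 window (chr17:84682871-84683170, plus strand) holds on the other strand.
Abcg5: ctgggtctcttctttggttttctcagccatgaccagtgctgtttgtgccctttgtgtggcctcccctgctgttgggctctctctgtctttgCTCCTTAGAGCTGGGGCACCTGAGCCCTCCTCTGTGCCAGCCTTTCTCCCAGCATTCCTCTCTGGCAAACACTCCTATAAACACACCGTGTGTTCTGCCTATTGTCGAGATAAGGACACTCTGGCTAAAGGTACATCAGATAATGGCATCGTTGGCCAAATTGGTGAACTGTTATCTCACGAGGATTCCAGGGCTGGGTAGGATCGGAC
The Abcc4 window (chr14:118706170-118706469, minus strand) and the Abcc2 window (chr19:43782058-43782357, plus strand) are printed with capitals for the motif matches found in them.
Abcc4: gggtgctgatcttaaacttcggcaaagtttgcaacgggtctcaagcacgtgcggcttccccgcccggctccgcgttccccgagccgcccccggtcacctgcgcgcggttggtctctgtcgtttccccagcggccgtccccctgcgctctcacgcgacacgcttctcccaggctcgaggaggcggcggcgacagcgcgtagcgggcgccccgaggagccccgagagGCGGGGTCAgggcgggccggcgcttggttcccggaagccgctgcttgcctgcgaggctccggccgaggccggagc
Abcc2: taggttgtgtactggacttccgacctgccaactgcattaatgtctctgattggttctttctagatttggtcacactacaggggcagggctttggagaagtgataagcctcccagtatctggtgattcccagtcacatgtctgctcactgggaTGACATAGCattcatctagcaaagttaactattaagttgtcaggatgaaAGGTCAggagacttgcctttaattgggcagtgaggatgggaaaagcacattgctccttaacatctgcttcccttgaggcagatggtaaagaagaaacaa
Both strands were searched for TGACNNNGC, the core of the antioxidant response element and for the nuclear receptor half-sites AGGTCA and AGTTCA. They were also searched for the CAR direct repeat and the LXR direct repeat, in which AGTTCA or AGGTCA follows itself after a gap of 4 bases. The half-sites are part of the direct repeats and were counted separately. Of 32851 RefSeq promoter windows of 300 bases, 12.4% hold the antioxidant core, 16.3% AGGTCA, 14% AGTTCA, 0.0122% the CAR repeat and 0.0152% the LXR repeat. The antioxidant core lies in the printed Abcc4 window on the opposite strand, in the printed Abcc2 window, in a second annotated Abcc4 window and in the Abcb1a window. AGGTCA has matches in the Abcc2 window, in the Abcb11 window and in 2 of 3 Abcg2 windows. AGTTCA has matches in the windows of Abcb11, Abcb1a and Abcb4, and in the stretch that the Abcg5 and Abcg8 windows share, where capitals do not mark it. Neither direct repeat has a match in any of the 12 windows of the members.

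Abcc3 and Abcc4 were higher in phenobarbital livers at every time and without overlap. With 1 probe set per gene, Abcc2, at days 7 and 91, was the only canalicular pump called higher. Abcb1a was read there from its brighter probe set, while its dimmer one, described below, was higher at days 7 and 91 in a fit without a filter. Abcg5 and Abcg8 were lower at days 1, 7 and 28, and Abcb4 at days 28 and 91. Of the 10 members, 2 were called higher and 2 lower at day 1, when 15.8% of all tested genes were called higher and 16.7% lower. At day 7 there were 3 higher and 2 lower members, against 5.64% and 11.4% of all genes. At day 28 there were 2 higher and 3 lower members, against 11.2% and 18.1% of all genes. At day 91 there were 3 higher and 1 lower, against 4.62% and 16.1% of all genes. The counts of lower members lie near the shares of all genes, and so do the higher counts of days 1 and 28. The higher counts of days 7 and 91 lie above them. The members were chosen with earlier results of these data known, so this excess is a description and not a test.

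Groups did not overlap for 2 higher and 2 lower members at day 1, when this held for 12.8% of all genes upwards and 13.1% downwards. At day 7 they did not overlap for 3 higher and 2 lower members (3.61% and 7.61% of all genes), at day 28 for 2 and 2 (5.8% and 9.59%), and at day 91 for 3 and 0 (2.54% and 8.75%). The median effect over the members was -0.0393, 0.0561, -0.0607 and -0.0356 at the 4 times, beside medians over all genes of 0.00628, -0.0481, -0.0201 and -0.066. The members thus moved in both directions around a median close to 0.

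**Figure D1:**
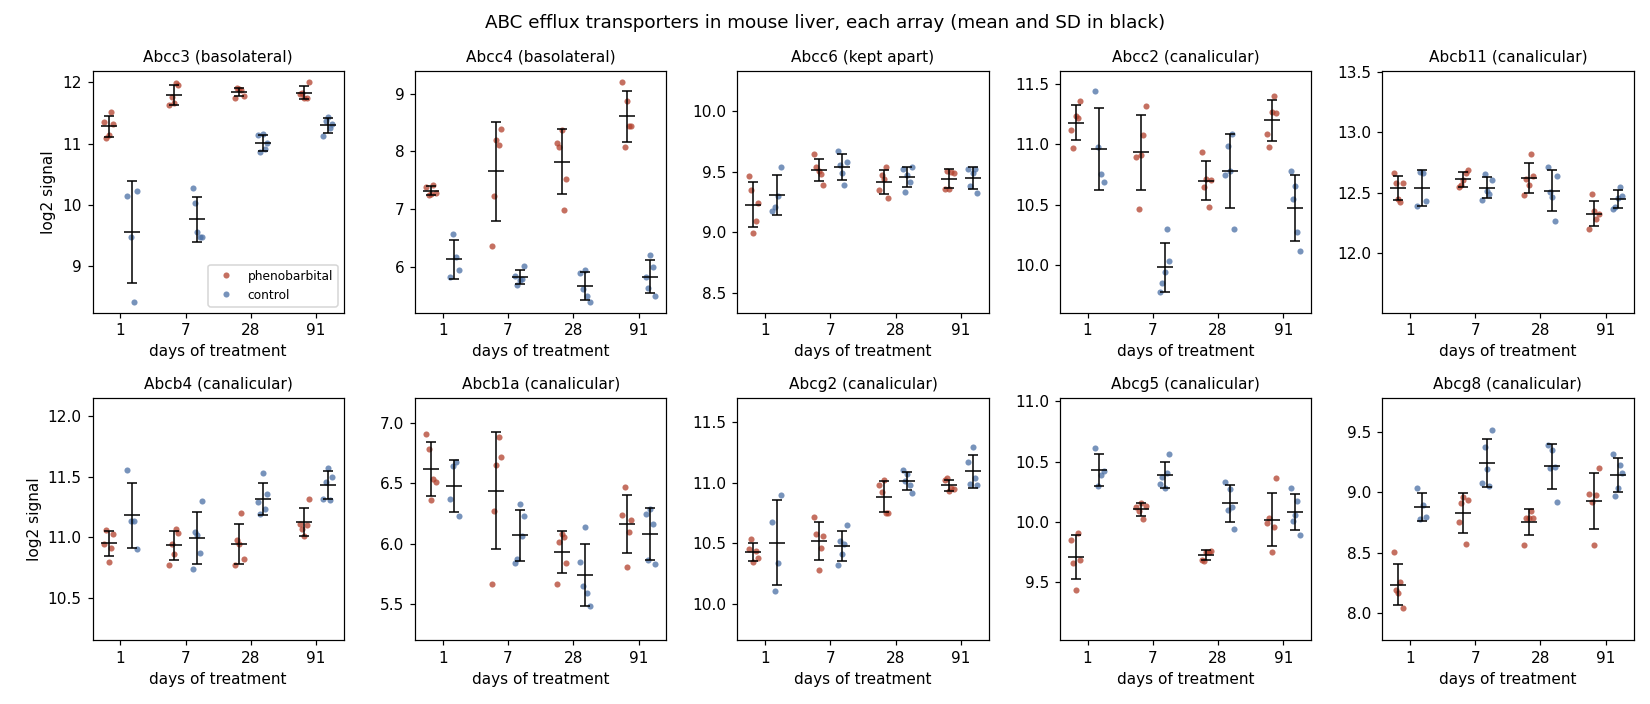
Log2 signal of each array (vertical axis) against days of treatment for the 10 transporters, with phenobarbital arrays in red at the left of each pair and control arrays in blue at the right; black bars are the group mean and SD, and each panel has its own range of at least 2 log2 units. Abcc3 and Abcc4 show separate groups at all 4 times, while Abcb11, Abcg2 and Abcc6 overlap at all 4.

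Abcc3 (probe set 1428988_at; chr11:94343295-94393017, GRCm38.p6) encodes a basolateral pump for glucuronides and bile acids. At day 1 its log2 signal was 11.35, 11.09, 11.14, 11.51 and 11.32 in phenobarbital livers, against 10.14, 9.48, 8.42 and 10.22 in controls. At day 7 it was 11.62, 11.76, 11.67, 11.99 and 11.95 in phenobarbital livers, against 10.27, 10.03, 9.56, 9.47 and 9.47 in controls. The treated arrays lay close together at both times, and the day 1 controls were the most scattered group of the gene. At day 28 it was 11.75, 11.90, 11.89, 11.88 and 11.78 in phenobarbital livers, against 11.13, 10.87, 11.16, 10.91 and 11.01 in controls. At day 91 it was 11.82, 11.83, 11.75, 11.75 and 12.01 in phenobarbital livers, against 11.12, 11.38, 11.44, 11.26 and 11.33 in controls. At these later times both groups were tight and the gap between them was narrower, although still without overlap.

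The effect on Abcc3 was 1.72 (SE 0.20, adjusted p = 7.17e-08) at day 1 and 2.04 (SE 0.19, adjusted p = 3.24e-10) at day 7, which are 3.30-fold and 4.11-fold. At day 28 it was 0.83 (SE 0.19, adjusted p = 0.00122), or 1.78-fold, and at day 91 it was 0.53 (SE 0.19, adjusted p = 0.0407), or 1.44-fold. The effect depended on time by the F test (adjusted p = 0.000142), which called 35.1% of all genes and 4 of the 10 members, Abcc2, Abcc3, Abcc4 and Abcg5. Between days 1 and 7 the effect differed for 2 members (21.3% of all genes), between days 7 and 28 for 2 (11.8%), between days 28 and 91 for 2 (21.7%), and between days 1 and 91 for 4 (30.4%). From day 7 to day 28 it fell by 1.21 (SE 0.26, adjusted p = 0.00504), and from day 1 to day 91 by 1.19 (SE 0.27, adjusted p = 0.00151). With the spike-in signal as a covariate the first of these was -1.53 and not called (adjusted p = 0.301), and the second was -1.07 (adjusted p = 0.00984). Spike-in signal did not overlap between the groups at day 1 (10.55 to 10.85 in phenobarbital livers, 10.91 to 10.97 in controls) or at day 7. Fits with this covariate therefore cannot fully separate it from the treatment at these times. The call at day 91 was lost when any of 9 of its 10 arrays was left out (adjusted p 0.0549 to 0.0842), although the effect stayed between 0.48 and 0.59 over 20 other settings. Estimating the spread from the day 91 arrays alone gave an adjusted p of 0.000723.

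The Abcc3 level was also higher in the later controls. Among controls, 3, 5 and 4 of the 10 members differed from day 1 at days 7, 28 and 91, against 35.2%, 20.5% and 36.2% of all genes. Control livers were higher by 1.45 (SE 0.20, adjusted p = 1.29e-06) at day 28 and by 1.74 (SE 0.20, adjusted p = 2.23e-08) at day 91 than at day 1. The day 7 controls were 0.20 above day 1 (SE 0.20, adjusted p = 0.452). In order of level, phenobarbital days 28, 91 and 7 came first with means of 11.84, 11.83 and 11.80, which lay within their spread of each other. Control day 91 (11.30) and phenobarbital day 1 (11.28) came next and also overlapped. They were followed by control day 28 (11.01), and then, 1.26 lower and without overlap, by control days 7 (9.76) and 1 (9.56). The treated means thus spanned 0.558 over the 4 times, against 1.74 for the control means.

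Abcc4 (1443870_at; chr14:118482692-118707856) encodes a basolateral pump that carries bile acids together with glutathione, and also cyclic nucleotides and steroid sulfates. At day 1 its log2 signal was 7.38, 7.25, 7.26, 7.42 and 7.28 in phenobarbital livers, against 5.83, 6.57, 6.18 and 5.94 in controls. At day 7 it was 6.36, 7.23, 8.20, 8.12 and 8.38 in phenobarbital livers, against 5.84, 5.69, 5.77, 5.79 and 6.02 in controls. The treated arrays of day 7 were spread widely, and even the lowest was above every control of that day. At day 28 it was 8.15, 8.08, 8.37, 6.99 and 7.53 in phenobarbital livers, against 5.90, 5.63, 5.94, 5.50 and 5.40 in controls. At day 91 it was 9.21, 8.08, 8.87, 8.45 and 8.44 in phenobarbital livers, against 5.83, 5.63, 6.20, 6.00 and 5.49 in controls. The control levels lay near the array medians of 5.69 to 5.80, so they are dim, and the probe set was above the array median on 32 of 39 arrays.

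The effect on Abcc4 was 1.19 (SE 0.28, adjusted p = 0.00118) at day 1, 1.83 (SE 0.26, adjusted p = 4.65e-06) at day 7, 2.15 (SE 0.26, adjusted p = 2.27e-07) at day 28 and 2.78 (SE 0.26, adjusted p = 9.08e-10) at day 91. These are 2.28-fold, 3.56-fold, 4.44-fold and 6.87-fold. The effect at day 91 exceeded that at day 1 by 1.59 (SE 0.38, adjusted p = 0.0022), and the F test gave an adjusted p of 0.00984. No step between neighbouring times passed on its own (adjusted p 0.216 to 0.599). Controls did not pass a test of change from day 1 at any time, with differences of -0.31, -0.46 and -0.30 at days 7, 28 and 91 (adjusted p 0.255 to 0.417). In order of level, phenobarbital day 91 came first at 8.61, then phenobarbital days 28, 7 and 1 at 7.82, 7.66 and 7.32, each overlapping the next. All control means, from 6.13 down to 5.67, lay below these and overlapped each other.

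The effects on the basolateral pumps therefore had opposite courses, each tested within its own gene. The effect on Abcc3 was larger at day 1 than at day 91, and the effect on Abcc4 was larger at day 91 than at day 1. The treated means of both were higher at day 91 than at day 1, with 11.83 against 11.28 for Abcc3 and 8.61 against 7.32 for Abcc4. That change in treated livers was not tested. Control Abcc3 was higher by 1.74 at day 91 than at day 1. Among the 12580 genes ranked from the highest effect, Abcc3 stood at 16, 19, 89 and 195 over the 4 times and Abcc4 at 86, 23, 21 and 12. Both belong to the 1.07% of genes called higher at all 4 times, which are 135 genes. By the root mean square difference of the 4 effects, the nearest genes to Abcc3 were 9130409I23Rik (0.252), Gsta2 (0.334), a glutathione transferase, and Cyp17a1 (0.376), a steroid hydroxylase. The nearest to Abcc4 were Ccn4 (0.495), a secreted matricellular protein, Smpd3 (0.539), a sphingomyelinase, and Meig1 (0.541), for which no role in liver is given here. These likenesses rest on 4 times and share the same arrays.

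**Figure D2:**
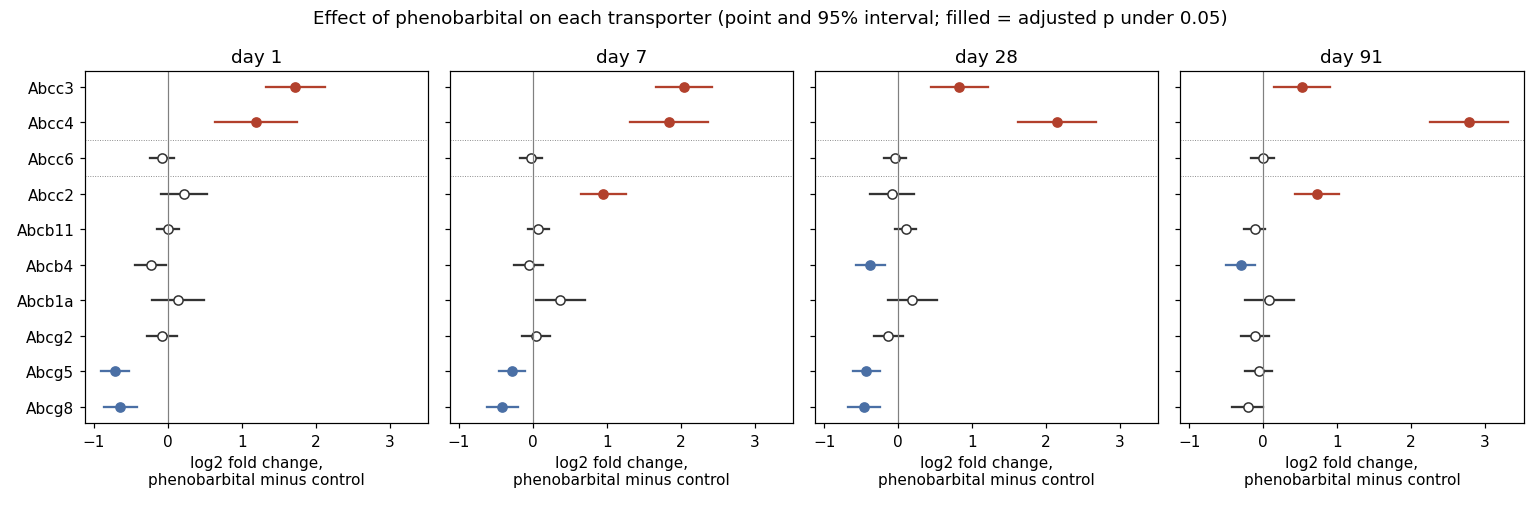
Log2 fold change, phenobarbital minus control, with its 95% interval (horizontal axis) for each transporter (rows) at days 1, 7, 28 and 91 (panels); filled red points were called higher, filled blue points lower, and open points were not called, and dotted lines set Abcc6 apart from the basolateral pair above and the canalicular pumps below. Abcc3 moves left and Abcc4 moves right from day 1 to day 91, while no canalicular pump reaches an effect of 1 in either direction. Abcb1a is drawn from its brighter probe set only, and the dimmer one had an effect of 1.09 at day 91 in a fit without a filter.

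Abcc2 (1450109_s_at; chr19:43782308-43838332) encodes the canalicular pump for bilirubin glucuronides and glutathione conjugates. With 1 probe set per gene it was the only canalicular member called higher at any time, although the probe sets of Abcb1a, described below, differed. At day 7 its log2 signal was 10.90, 10.47, 10.91, 11.07 and 11.31 in phenobarbital livers, against 9.78, 9.85, 9.94, 10.30 and 10.03 in controls. At day 91 it was 11.08, 10.98, 11.27, 11.40 and 11.26 in phenobarbital livers, against 10.78, 10.55, 10.65, 10.28 and 10.12 in controls. The groups did not overlap at these times. At day 1 it was 11.12, 10.97, 11.23, 11.22 and 11.36 in phenobarbital livers, against 11.44, 10.98, 10.76 and 10.68 in controls. At day 28 it was 10.94, 10.65, 10.71, 10.49 and 10.71 in phenobarbital livers, against 10.75, 10.98, 10.78, 11.08 and 10.30 in controls. At both of these times the control range spanned all of the treated values.

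The effect on Abcc2 was 0.95 (SE 0.15, adjusted p = 1.94e-05) at day 7 and 0.72 (SE 0.15, adjusted p = 0.000771) at day 91, or 1.93-fold and 1.65-fold. At day 1 it was 0.22 (SE 0.16, adjusted p = 0.295) and at day 28 it was -0.08 (SE 0.15, adjusted p = 0.714, 95% interval -0.38 to 0.22). The differences between neighbouring times passed: 0.74 from day 1 to day 7 (adjusted p = 0.0133), -1.03 from day 7 to day 28 (adjusted p = 0.00318) and 0.80 from day 28 to day 91 (adjusted p = 0.00838). The controls also moved, being lower by -0.98 at day 7 (adjusted p = 5.19e-05) and by -0.49 at day 91 (adjusted p = 0.0136) than at day 1. The mean signal of the 18 spike-in probe sets averaged 10.85 in phenobarbital livers (10.76 to 10.97) and 9.957 in controls (9.58 to 10.27) at day 7. With it as a covariate the day 7 effect was 0.58 (adjusted p = 0.0634) and the 3 differences between times were not called (adjusted p 0.141 to 0.998), whereas the day 91 effect was 0.63 (adjusted p = 0.00243). The difference between days 28 and 91 was also lost with the 3' minus 5' difference of control probe sets, a measure of RNA quality, as a covariate (0.58, adjusted p = 0.264). Abcc2 has 1 probe set, of a kind that can match several transcripts.

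Abcg5 and Abcg8 together form the canalicular sterol exporter that moves cholesterol and plant sterols into bile. Both were lower without overlap at days 1, 7 and 28, and neither was called at day 91. Abcg5 (1419393_at; chr17:84658174-84683011) had 9.85, 9.66, 9.44, 9.91 and 9.69 in phenobarbital livers at day 1, against 10.61, 10.30, 10.39 and 10.42 in controls. Abcg8 (1420656_at; chr17:84676302-84700333) had 8.51, 8.19, 8.17, 8.26 and 8.05 in phenobarbital livers at day 1, against 9.04, 8.78, 8.90 and 8.80 in controls. Every treated array of both genes lay below the lowest control. At day 7 Abcg5 had 10.12, 10.09, 10.15, 10.02 and 10.14 in phenobarbital livers, against 10.31, 10.37, 10.28, 10.41 and 10.56 in controls. At day 7 Abcg8 had 8.76, 8.91, 8.96, 8.57 and 8.94 in phenobarbital livers, against 9.08, 9.38, 9.19, 9.05 and 9.51 in controls. The gap was narrower than at day 1, and still without overlap. At day 28 Abcg5 had 9.68, 9.68, 9.76, 9.75 and 9.76 in phenobarbital livers, against 10.33, 10.10, 10.28, 10.12 and 9.94 in controls. At day 28 Abcg8 had 8.56, 8.79, 8.79, 8.85 and 8.79 in phenobarbital livers, against 9.39, 9.20, 9.35, 9.21 and 8.92 in controls. In both genes 1 control array, replicate 5, came nearest to the treated ones.

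The effects on Abcg5 were -0.72 (SE 0.09, adjusted p = 7.14e-07), -0.28 (SE 0.09, adjusted p = 0.0247), -0.43 (SE 0.09, adjusted p = 0.000528) and -0.06 (SE 0.09, adjusted p = 0.655) at days 1, 7, 28 and 91. Those on Abcg8 were -0.64 (SE 0.11, adjusted p = 4.11e-05), -0.41 (SE 0.10, adjusted p = 0.00591), -0.46 (SE 0.10, adjusted p = 0.00136) and -0.21 (SE 0.10, adjusted p = 0.15). Both genes were thus farthest below controls after 1 day. The Abcg5 effect at day 91 was 0.66 above that at day 1 (SE 0.13, adjusted p = 0.000395) and its F test passed (adjusted p = 0.00162). Its effect was also 0.44 higher at day 7 than at day 1 (adjusted p = 0.0146) and 0.36 higher at day 91 than at day 28 (adjusted p = 0.0355). With the spike-in covariate these were 0.20 (adjusted p = 0.636) and 0.25 (adjusted p = 0.293), and the second was also lost with the 3' minus 5' covariate (0.24, adjusted p = 0.449) and in 8 of 39 fits that left out 1 array (0.28 to 0.37, adjusted p 0.0501 to 0.083). The Abcg8 effect at day 91 was 0.43 above that at day 1 (SE 0.15, adjusted p = 0.0312), while its F test gave an adjusted p of 0.123. That difference was lost with the spike-in covariate (0.35, adjusted p = 0.124), with the 3' minus 5' covariate (0.31, adjusted p = 0.145) and in 5 of 39 fits that left out 1 array (0.36 to 0.43, adjusted p 0.0507 to 0.0703). At day 91 Abcg5 had 9.99, 10.03, 9.75, 9.96 and 10.36 in phenobarbital livers, against 10.28, 10.01, 10.06, 10.18 and 9.89 in controls, and the groups overlapped.

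The controls of these 2 genes drifted in opposite directions. Control Abcg5 was lower by -0.28 at day 28 (adjusted p = 0.0322) and by -0.35 at day 91 (adjusted p = 0.00395) than at day 1. Control Abcg8 was higher by 0.36 at day 7 (adjusted p = 0.0114) and by 0.34 at day 28 (adjusted p = 0.0273), and was not called at day 91 (0.26, adjusted p = 0.0603). Of 39 fits that left out 1 array, the day 28 control call was lost in 6 for Abcg5 and in 5 for Abcg8. The Abcg5 call at day 7 was lost after median centring (-0.24, adjusted p = 0.0738), without control replicate 5 (-0.24, adjusted p = 0.0746) and without phenobarbital replicate 4 (-0.26, adjusted p = 0.0639). At day 28 the arrays also differed in RNA quality as read from 3' minus 5' control probe sets, which averaged 0.461 in phenobarbital livers (0.422 to 0.503) and 0.663 in controls (0.516 to 0.806). With that difference as a covariate the day 28 effect was -0.29 for Abcg8 (adjusted p = 0.119), 0.69 for Abcc3 (adjusted p = 0.054), -0.33 for Abcg5 (adjusted p = 0.0466) and 2.22 for Abcc4 (adjusted p = 1.37e-05). Its ranges did not overlap between the groups at day 28, so this fit cannot fully separate RNA quality from the treatment.

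Abcb4 (1449818_at; chr5:8893614-8959226) encodes the flippase that brings phosphatidylcholine to the outer leaflet of the canalicular membrane. It was called lower at the later times, with some overlap. At day 28 it had 10.77, 10.98, 10.95, 11.20 and 10.82 in phenobarbital livers, against 11.29, 11.19, 11.53, 11.23 and 11.36 in controls. At day 91 it had 11.11, 11.07, 11.01, 11.10 and 11.32 in phenobarbital livers, against 11.31, 11.46, 11.57, 11.31 and 11.50 in controls. At each time 4 of 5 treated arrays lay below all controls. The effect was -0.38 (SE 0.10, adjusted p = 0.00422) at day 28 and -0.31 (SE 0.10, adjusted p = 0.024) at day 91, or 1.30-fold and 1.24-fold lower. The day 91 call was lost after median centring (-0.26, adjusted p = 0.0777) and when control replicate 3, control replicate 5 or phenobarbital replicate 3 was left out (adjusted p 0.0564 to 0.0659). At day 1 the effect was -0.23 (adjusted p = 0.0828) and at day 7 it was -0.06 (adjusted p = 0.71).

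Abcb11 (1449817_at; chr2:69238282-69342616), the bile salt export pump, was not called at any time. Its effects were -0.00, 0.07, 0.10 and -0.12 at days 1, 7, 28 and 91, and the 95% intervals together ran from -0.26 to 0.25. All 20 phenobarbital arrays lay between 12.20 and 12.82, and all 19 control arrays between 12.27 and 12.71. At day 91, however, 4 of 5 treated arrays lay below all controls of that day (effect -0.12, adjusted p = 0.238). Abcg2 (1422906_at; chr6:58584491-58692451), a canalicular pump for drugs and urate, had effects of -0.08, 0.04, -0.13 and -0.11, with intervals from -0.32 to 0.23 over the 4 times. Its level changed over time instead, since control livers were higher by 0.51 at day 28 (adjusted p = 0.000249) and by 0.59 at day 91 (adjusted p = 2.02e-05) than at day 1. Abcc6 (1421212_at; chr7:45974110-46030491) had effects of -0.08, -0.03, -0.04 and -0.01, with intervals from -0.24 to 0.14. These intervals give the sizes of change that the arrays leave possible for the 3 genes.

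Abcb1a (chr5:8567091-8748575) encodes a P-glycoprotein that exports hydrophobic drugs into bile, and its probe sets did not give the same picture. The brighter one, 1419759_at, had effects of 0.14, 0.37, 0.19 and 0.08 at days 1, 7, 28 and 91, none of them called (adjusted p 0.115 to 0.761). The dimmer one, 1419758_at, lay above the array median on only 2 of 39 arrays and failed the filter on low signal. At day 7 it had 4.88, 4.85, 5.63, 5.56 and 5.75 in phenobarbital livers, against 4.29, 3.81, 4.95, 4.44 and 4.44 in controls. At day 91 it had 5.30, 5.47, 5.09, 5.43 and 5.43 in phenobarbital livers, against 4.47, 4.10, 5.14, 3.76 and 3.80 in controls. These groups touched at the edges but were mostly apart. In a fit over all probe sets without the filter, an alternative chosen after seeing the data, its effects were 0.18 (adjusted p = 0.654), 0.95 (SE 0.25, adjusted p = 0.01), 0.48 (adjusted p = 0.155) and 1.09 (SE 0.25, adjusted p = 0.00279). That fit called 27.5%, 12.4%, 26.2% and 17.1% of its 34945 probe sets at the 4 times. The mean of both probe sets gave 0.66 at day 7 (adjusted p = 0.014) and 0.59 at day 91 (adjusted p = 0.0242). Abcb1a is therefore left as uncertain, also because the near-identical neighbour Abcb1b may share signal with it, which was not tested.

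The contrast of the faces of the hepatocyte was taken per array, as the mean log2 signal of Abcc3 and Abcc4 minus that of the 7 canalicular pumps. At day 1 it ran from -0.80 to -0.49 in phenobarbital livers, against -2.83 to -1.97 in controls. At day 7 it ran from -0.94 to -0.03 in phenobarbital livers, against -2.38 to -1.73 in controls. The groups stood apart at both times, and did so later as well. At day 28 it ran from -0.55 to 0.15 in phenobarbital livers, against -1.87 to -1.68 in controls, and at day 91 from -0.19 to 0.42, against -1.74 to -1.37 in controls. The mean effect on the basolateral pair was 1.46, 1.94, 1.49 and 1.65 at days 1, 7, 28 and 91, and on the canalicular pumps -0.19, 0.10, -0.17 and -0.00. Their difference of 1.64, 1.84, 1.66 and 1.66 is a description without a test. With Abcc6 counted as basolateral it was 1.13, 1.18, 1.15 and 1.10.

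**Figure D3:**
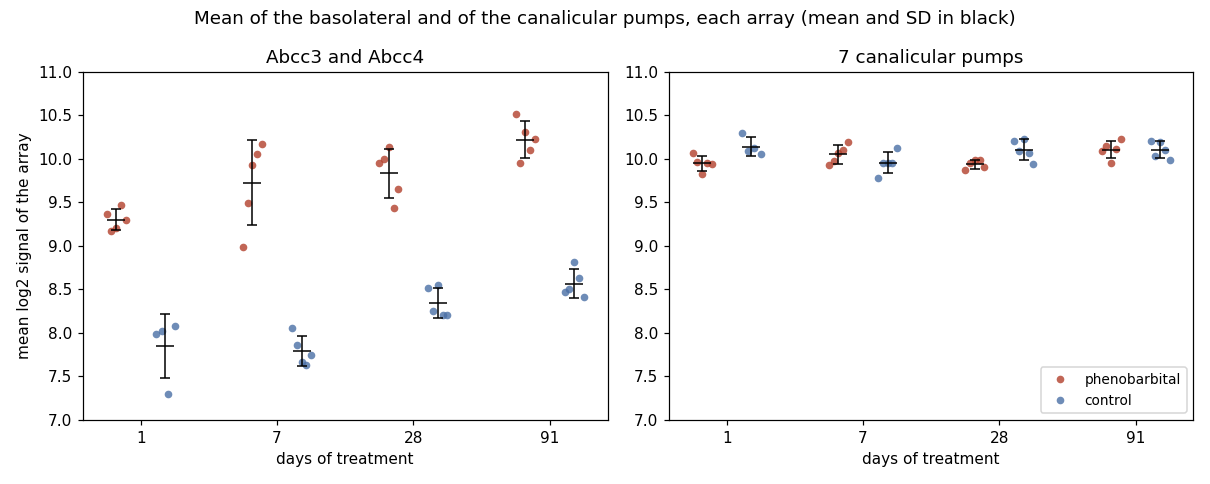
Mean log2 signal per array (vertical axis) of Abcc3 and Abcc4 (left) and of the 7 canalicular pumps (right) against days of treatment, with phenobarbital arrays in red at the left of each pair, control arrays in blue at the right, and black bars for the group mean and SD. The basolateral means are separate at every time, whereas the canalicular means stay within 9.79 to 10.30 in all groups.

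Markers of other cell types were read beside these results, because the RNA is of whole liver. The hepatocyte list of 7 genes on the array averaged 13.26 to 13.36 in phenobarbital livers and 13.42 to 13.60 in controls at day 1, with 2 of 7 lower, Ass1 and Cyp2e1. The median effect of the list at day 1 was -0.04, while the lowest, that of Ass1, was -1.22 and weighs heavily in these averages. At day 28 Ass1 (-1.49, adjusted p = 0.000983) and Apoa1 (-0.06, adjusted p = 0.0488) were lower, and at days 7 and 91 none of the 7 was called. The Apoa1 call was lost whichever of the 10 arrays was left out, that of Ass1 with the 3' minus 5' covariate (-1.15, adjusted p = 0.0619), and that of Cyp2e1 at day 1 after median centring (-0.09, adjusted p = 0.066). Stellate cell markers were called lower in 0, 2, 4 and 2 of 6 at days 1, 7, 28 and 91, and endothelial markers in 1, 2, 4 and 2 of 6, while Kupffer cell markers had no call. Of all genes, 16.7%, 11.4%, 18.1% and 16.1% were called lower at these times. With the 3' minus 5' covariate the day 28 calls of the endothelial markers Cdh5, Clec4g and Kdr were lost (adjusted p 0.101, 0.0731 and 0.12). The day 91 call of Lrat, a stellate marker, was lost in 5 of 10 fits that left out 1 array. At day 28 the stellate list averaged 8.003 to 8.424 in phenobarbital livers against 8.572 to 8.665 in controls, beside the lower Abcg5, Abcg8 and Abcb4 of that time. The part of these cells in the transporter results was not tested. One array stood apart at day 1, phenobarbital replicate 3, with an exocrine pancreas mean of 11.05 against at most 6.043 elsewhere. Another stood apart at day 7, phenobarbital replicate 3, with a neutrophil mean of 10.2 against at most 7.225 elsewhere. The same array had a Kupffer cell mean of 10.56 against at most 9.724 elsewhere, and no call of a member at its time was lost without either array. The labels' extraction text also names kidney, and the kidney genes Umod and Slc12a1 lay below the lower quartile of all 39 arrays. Of the 6 kidney genes, Kap and Aqp2 passed the filter on low signal and neither was called. Of the bile duct markers 3 were tested, with Krt19 lower at day 7 (-0.31, adjusted p = 0.0445), a call lost in 8 of 10 fits that left out 1 array, and Epcam higher at day 28 (0.57, adjusted p = 0.00063), a direction that turned without probe sets of several transcripts. Cftr, another bile duct gene, lay below the lower quartile of all arrays.

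Of 27 other ABC genes tested, 1, 0, 2 and 0 were higher and 5, 4, 3 and 6 lower at days 1, 7, 28 and 91. The lower counts lie near the shares of all genes called lower at these times (16.7%, 11.4%, 18.1% and 16.1%). Shares of all genes called higher were 15.8%, 5.64%, 11.2% and 4.62%. Their median effects were -0.0328, -0.117, -0.0074 and -0.11. Abca8a, a membrane lipid transporter, was lower by -0.86 (SE 0.08, adjusted p = 2.02e-09) at day 1, by -0.29 at day 7 (adjusted p = 0.00868) and by -0.42 at day 28 (adjusted p = 0.000185), and it was not called at day 91 (-0.11, adjusted p = 0.313). Abca1, which loads cholesterol onto apolipoprotein, was lower by -0.53 (SE 0.07, adjusted p = 8.55e-07) at day 1 and by -0.22 (adjusted p = 0.0183) at day 7. The Abca1 call at day 7 was lost with its probe sets averaged (-0.13, adjusted p = 0.257), after median centring (-0.18, adjusted p = 0.0807), and without control replicate 3 or phenobarbital replicate 2 (adjusted p 0.0518 and 0.0516). Like the sterol pair, these lipid transporters had their lowest effect at day 1. Abcc9, a subunit of potassium channels that is expressed in pericytes, was lower by -0.66 (SE 0.09, adjusted p = 9.07e-07) at day 28, beside the stellate markers given above. Abcf2 was lower by -0.32 (SE 0.06, adjusted p = 9.58e-05) at day 91, but by -0.12 (adjusted p = 0.0884) when its probe sets were averaged.

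Uptake and bile acid genes gave the surroundings of the pumps. Among 9 uptake and bile acid carriers, 2, 3, 2 and 0 were higher at the 4 times (15.8%, 5.64%, 11.2% and 4.62% of all genes). Lower were 2, 2, 1 and 2 (16.7%, 11.4%, 18.1% and 16.1% of all genes). Slco1a4, a basolateral carrier of organic anions, was higher by 0.94 (SE 0.26, adjusted p = 0.00454) at day 1 and by 1.31 (SE 0.24, adjusted p = 0.000244) at day 7. Its day 1 call was lost without control replicate 4 (0.48, adjusted p = 0.0657) and with only the arrays compared (0.94, adjusted p = 0.0522). Slc51a, a subunit of the basolateral bile acid exporter, was higher by 0.52 (SE 0.10, adjusted p = 0.000224) at day 1 and by 0.49 (SE 0.10, adjusted p = 0.000341) at day 28. Slc10a1, which takes conjugated bile acids up from blood, was higher at day 7 by 0.29 (SE 0.04, adjusted p = 1.88e-05) and was not called at the other times. Slco1b2, another anion carrier, was also higher at day 7 (0.33, SE 0.07, adjusted p = 0.00127). Other carriers went the other way. Slc22a7 was lower at all 4 times, by -0.37, -0.58, -0.55 and -0.42 (adjusted p 0.0352, 0.00188, 0.00191 and 0.0191). Slco1a1 was lower by -1.22 (SE 0.47, adjusted p = 0.0425) at day 1 and by -1.31 (SE 0.44, adjusted p = 0.0354) at day 7. Both lower carriers were not followed under the other settings. With the spike-in signal as a covariate the day 7 effects were 0.92 for Slco1a4 (adjusted p = 0.0943), 0.18 for Slc10a1 (adjusted p = 0.0529) and 0.20 for Slco1b2 (adjusted p = 0.223).

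Of 10 genes of bile acid synthesis and conjugation, 0, 2, 0 and 1 were higher at the 4 times (15.8%, 5.64%, 11.2% and 4.62% of all genes). Lower were 3, 0, 0 and 1 (16.7%, 11.4%, 18.1% and 16.1% of all genes). Akr1d1, the steroid 5-beta-reductase of the pathway, was higher by 0.70 (SE 0.13, adjusted p = 0.000244) at day 7 and by 0.44 (SE 0.13, adjusted p = 0.0129) at day 91. The day 7 call was lost with the spike-in covariate (0.46, adjusted p = 0.11) and the day 91 call without control replicate 5 (0.35, adjusted p = 0.0615). Slc27a5 and Baat, which activate and conjugate bile acids, were lower at day 1 by -0.19 (adjusted p = 0.00144) and -0.25 (adjusted p = 0.00284). For Baat the effect was -0.11 (adjusted p = 0.321) without probe sets of several transcripts. Slc27a5 was called higher at day 7, opposite to day 1. That day 7 call was lost with only the arrays compared (0.14, adjusted p = 0.0566) and with the spike-in covariate (0.10, adjusted p = 0.312). It was also lost in 4 of 10 fits that left out 1 array. Cyp7a1, the rate-limiting enzyme, was not called at any time. Its effects ran from -0.14 to 0.34.

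Canalicular partners are the genes that keep the membrane and its scaffold in order. Among 9 of them, 2, 0, 2 and 1 were higher at days 1, 7, 28 and 91 (15.8%, 5.64%, 11.2% and 4.62% of all genes). Lower were 3, 1, 3 and 0 (16.7%, 11.4%, 18.1% and 16.1% of all genes). Atp8b1, a phospholipid flippase of the canaliculus, was lower by -0.93 (SE 0.12, adjusted p = 4.65e-07) at day 1 and by -0.40 (SE 0.11, adjusted p = 0.00754) at day 28. Its subunit Tmem30a was lower by -0.47 (SE 0.06, adjusted p = 1.52e-06) and -0.24 (SE 0.06, adjusted p = 0.00266) at the same times. The scaffold genes moved the other way. Pdzk1 was higher by 0.41 (SE 0.08, adjusted p = 9.23e-05) at day 1 and 0.35 (SE 0.07, adjusted p = 0.000457) at day 28, and Slc9a3r1 by 0.25 (adjusted p = 0.00185), 0.24 (adjusted p = 0.00239) and 0.29 (adjusted p = 0.000605) at days 1, 28 and 91. With the 3' minus 5' difference as a covariate the day 28 effects of Atp8b1, Tmem30a and Pdzk1 were -0.23, -0.17 and 0.25 (adjusted p 0.281, 0.121 and 0.0556).

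Of 12 nuclear receptors and other regulators of the pumps, 2, 3, 0 and 1 were higher at the 4 times (15.8%, 5.64%, 11.2% and 4.62% of all genes). Lower were 1, 2, 2 and 4 (16.7%, 11.4%, 18.1% and 16.1% of all genes). Ppara, the fatty acid receptor, was lower at all 4 times. At day 1 it averaged 9.80 ± 0.17 in phenobarbital livers (SD, n = 5) and 10.80 ± 0.31 in controls (SD, n = 4; adjusted p = 2.44e-07 by limma), and the later effects were -0.48 at day 7, -0.87 at day 28 and -0.46 (adjusted p = 0.00532) at day 91. Nr1i3, which encodes CAR itself, was lower by -0.59 (SE 0.12, adjusted p = 0.000635) at day 7 and by -0.50 (SE 0.12, adjusted p = 0.0032) at day 91. Ahr, the dioxin receptor, was higher at the same times by 0.76 (SE 0.15, adjusted p = 0.000478) and 1.00 (SE 0.15, adjusted p = 1.35e-05). With the spike-in signal as a covariate the day 7 effects were -0.34 for Nr1i3 (adjusted p = 0.201) and 0.43 for Ahr (adjusted p = 0.196). Rxra, the partner of CAR, was lower by -0.39 (adjusted p = 0.00429) at day 91, but by -0.09 (adjusted p = 0.303) when all its probe sets were averaged.

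Of 7 targets of NRF2, the antioxidant factor whose core motif was searched above, 4, 3, 3 and 2 were higher at the 4 times (15.8%, 5.64%, 11.2% and 4.62% of all genes). Lower were 1, 0, 1 and 0 (16.7%, 11.4%, 18.1% and 16.1% of all genes). Srxn1, a sulfiredoxin, was higher by 1.55 (SE 0.10, adjusted p = 1.08e-13), 0.36, 0.77 and 0.35 (adjusted p = 0.00854) at days 1, 7, 28 and 91. Nqo1, a quinone reductase, averaged 8.64 ± 0.33 in phenobarbital livers (SD, n = 5) and 7.13 ± 0.39 in controls (SD, n = 4; adjusted p = 1.34e-08 by limma) at day 1, and was not called at day 91 (0.32, adjusted p = 0.131). With the spike-in covariate the day 7 effects of Srxn1 and Nqo1 were 0.41 (adjusted p = 0.067) and 0.48 (adjusted p = 0.178).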

How the data were processed

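Whole liver RNA of 39 arrays was labelled for Affymetrix mouse arrays. The authors deposited 1 log2 signal per probe set and array (array medians 5.69 to 5.80). Array means were 6.221 to 6.246 in phenobarbital livers and 6.247 to 6.263 in controls. The normalization method is not given in the sources used here, and GCOS is named without a version, per the submitters' processing notes. No value was changed or imputed. Day 28 control replicate 2 has an identifier outside the range of the others.

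Probe sets were named by the supplied platform annotation (34945 with 1 symbol, 932 with several, 9160 with none, 64 control probe sets left out). A gene is its probe set with the highest mean. Genes above the array median on at least 4 arrays were tested, which are 12580 of 18193. All 10 members passed. Gene coordinates and promoter windows are from RefSeq (GRCm38.p6).

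A model with 1 mean per group was fitted over all arrays in limma 3.58.1 (R 4.3.3) with a variance trend, giving 31 residual and 4.46 prior degrees of freedom. P-values are 2-sided and adjusted by Benjamini-Hochberg within each comparison. Comparisons were phenobarbital minus control at each time, differences of effects between times, their F test, and changes in controls. On simulated data with 12580 genes, 82%, 81%, 82% and 84% of changes of 0.5 were recovered at days 1, 7, 28 and 91, with 4.79%, 8.29%, 4.3% and 3.76% of calls false. Precision is limited by how many arrays each group has.

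The text names all members. From each list it draws on up to 4 called genes with the smallest p, or the top 2 by p if none was called. Not all genes so picked are printed. The text also names Cyp2b10 and the 3 nearest genes to Abcc3 and to Abcc4. Slc12a1, Umod, Cftr, Cyp7a1, Slc22a7 and Slco1a1 were named outside this rule, after their values were seen. The members and lists were chosen with earlier results of these data known. Other settings tried were quantile normalization, median centring, no or a stricter filter, the mean of all probe sets, leaving out probe sets of several transcripts, array weights, only the arrays compared, spike-in signal or the 3' minus 5' difference as a covariate, and each array left out. Spike-in ranges did not overlap between the groups at days 1 and 7, nor 3' minus 5' ranges at day 28. These covariates thus cannot be fully separated from the treatment at those times.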

Additional observations from a re-analysis of the deposited data

Results flagged for a closer look

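Abcg8 in phenobarbital livers of day 28 had 1 array, replicate 1, at 8.56195, while the nearest of the other 4 was 8.79 and the farthest 8.85, so that it stood apart by Dixon's criterion. Of 88 groups examined this was the only one, and chance gives about 1 in 20.

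Several effects differed between times by a test of the difference itself. For Abcc2 the later effect minus the earlier one was 0.73563 for day 7 minus day 1, -1.0323 for day 28 minus day 7 and 0.804 for day 91 minus day 28. For Abcc3 it was -1.2104 for day 28 minus day 7 and -1.1929 for day 91 minus day 1. For Abcc4 it was 1.5905 for day 91 minus day 1. For Abcg5 it was 0.43701 for day 7 minus day 1, 0.36477 for day 91 minus day 28 and 0.65645 for day 91 minus day 1, and for Abcg8 it was 0.43159 for day 91 minus day 1. Calls among these that other settings end are given with the genes above. Such differences were called in 21.3% of all genes between days 1 and 7, 11.8% between days 7 and 28, 21.7% between days 28 and 91 and 30.4% between days 1 and 91.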

How the results depend on the processing

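The calls of Abcc4 at all 4 times, of Abcc3 at days 1 and 7, of Abcg5 at days 1 and 28, of Abcg8 at days 1 and 7, of Abcb4 at day 28 and of Abcc2 at day 91 held in each of the 19 or 20 settings that gave a value, and no called value of a member turned its sign. Members called lower were 1 at day 7 and 0 at day 91 after median centring, and 1 member was higher at day 28 with the 3' minus 5' covariate. Leaving out arrays gave 1 to 2 lower members at day 7 (1 without control replicate 5 or phenobarbital replicate 4) and 0 to 1 at day 91 (0 without control replicate 3 or 5 or phenobarbital replicate 3). Members changed in controls from day 1 numbered 0 at day 7 with the spike-in covariate against 3 as reported, 2 to 5 when arrays were left out (5 without control day 1 replicate 4), and 3 to 5 at day 28 (3 without control day 1 replicate 3). Basolateral minus canalicular means were 1.13, 1.18, 1.15 and 1.10 with Abcc6 as basolateral.

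Over all genes, higher calls at day 28 were 2350 after quantile normalization, 2164 without a filter, 796 with the spike-in and 411 with the 3' minus 5' covariate (1403 as reported). Lower calls at day 28 were 1390 and 616 with these covariates (2276 as reported). At day 7, higher calls were 351 with the spike-in covariate (709), and lower calls 500 with it and 879 after centring (1429). At day 91, higher calls were 966 without a filter, 1017 with array weights and 377 to 694 when arrays were left out, the fewest without control replicate 5 (581). Lower calls at day 91 were 1221 after quantile normalization, 1076 after centring, 1245 with the stricter filter and 3040 with array weights (2023). The F test called 1951 genes with the spike-in and 2253 with the 3' minus 5' covariate (4415). Higher genes made up 48.5%, 33.2%, 38.1% and 22.3% of calls at the 4 times, 62.4%, 45.3%, 57.9% and 38.9% after quantile normalization and 63%, 51.4%, 53.4% and 42.4% after centring. Reversed values were those of Epcam, a cholangiocyte marker (-0.24 at day 91 with probe sets averaged, -0.18 at day 28 and -0.61 at day 91 without probe sets of several transcripts), and of Abcf2 at day 7 (0.20 with the spike-in covariate). The causes were not tested. No paired analysis was possible because the labels carry no replicate numbers. Dim signal limits Abcc4 in controls and Abcb1a.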
